A study of Mus musculus with 17 samples.

Results

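The 40 genes described here encode carriers, enzymes and regulators of fatty acid oxidation in mitochondria and peroxisomes and of ketone body formation. They were chosen by symbol from a table of 23461 genes. All 40 were present in the table and all 40 passed the filter on low counts. RNA was sequenced from sorted mouse hepatocytes in 17 samples of 4 groups. KO CCl4 (n = 3) were hepatocytes of mice with the genotype Yap/Taz KO that had received carbon tetrachloride (CCl4), a solvent that injures hepatocytes. KO untreated (n = 4) had the same genotype and no CCl4. WT CCl4 (n = 5) were hepatocytes of wildtype mice given CCl4, and WT untreated (n = 5) those of wildtype mice without it. All mice were males of 2 to 3 months. CCl4 was dosed at 1 ug/g, 7 times at intervals of 3 days, and cells were collected 3 days after the last dose. Yap and Taz are transcriptional coactivators of the Hippo pathway, encoded by Yap1 and Wwtr1. How and in which cells they were deleted, the strain and the feeding state at collection are not stated in the labels. Nothing in the labels says that replicates came from separate animals, so p-values measure the spread between these samples, which may be technical.

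Fatty acids enter hepatocytes, are bound by carrier proteins, are activated to acyl-CoA and cross into mitochondria as carnitine esters, where each round of beta oxidation shortens them and releases acetyl-CoA. Peroxisomes shorten the very long chains first. In the fasting liver much of the acetyl-CoA becomes ketone bodies for other tissues, and the nuclear receptor PPARA, bound to DNA with RXR, is a main activator of these genes.

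Library totals ran from 11266420 to 24775863 counts. Yap1 lay between 0.696 and 7.59 CPM (counts scaled by the library total) in the 7 KO libraries and between 31.2 and 72.8 CPM in the 10 WT libraries. Summed over 11 hepatocyte markers, every library held at least 78376 CPM. KO CCl4 replicate 3 stood apart: its 15 macrophage markers summed to 5034 CPM, against 195 and 536 CPM in the other KO CCl4 libraries, 24.3 to 64.1 CPM in KO untreated, 60.7 to 173 CPM in WT CCl4 and 16.9 to 70.4 CPM in WT untreated. All 15 of these markers rose in KO CCl4 against KO untreated, with a median log2 fold change of 8.72, and against WT CCl4, with a median of 5.04, and none had a group mean of 0. Without replicate 3, 13 rose against KO untreated (median 5.59) and 2 against WT CCl4 (median 2.24). In the untreated groups Mpeg1 alone made up most of the macrophage sums, with means of 37.6 CPM in KO untreated and 36.6 CPM in WT untreated. Every other macrophage marker had a mean of at most 1.47 CPM in those groups. Endothelial markers (10 genes) summed to 123 to 794 CPM in KO CCl4, 20.1 to 28.9 CPM in KO untreated, 42.8 to 178 CPM in WT CCl4 and 8.17 to 45.4 CPM in WT untreated, and 9 of 10 rose in KO CCl4 against KO untreated, or 6 without replicate 3. Stellate cell markers (10 genes) summed to 18.1 to 165 CPM in KO CCl4, 1.17 to 2.37 CPM in KO untreated, 7.09 to 44.3 CPM in WT CCl4 and 1.33 to 7.96 CPM in WT untreated. Of these, 7 of the 8 tested rose in KO CCl4 against KO untreated, or 5 without replicate 3, and Acta2 was at 0 in both untreated groups. Mitochondrially encoded genes took 34.3% of the counts of KO CCl4 replicate 3 and 30.7% of WT untreated replicate 5, against at most 20.1% elsewhere. The part of these cells and libraries in the results was not tested, and values are therefore given with and without KO CCl4 replicate 3.

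Adjusted p-values are from edgeR's quasi-likelihood test, fitted on all 17 libraries and 13721 genes with Benjamini-Hochberg adjustment over all of them, and calls were made at adjusted p under 0.05. From here on, CPM are scaled by the trimmed mean of M-values (TMM), and fold changes are on the log2 scale with their standard error (SE). After CCl4 in KO hepatocytes, 3 of the 40 genes rose and 7 fell, in a comparison in which 19% of all tested genes were called (12.1% higher and 6.96% lower). The thioesterase Acot2, the kinase Pdk4 and the carnitine acetyltransferase Crat were the 3 that rose. Those that fell were the fatty acid carrier Fabp1, the activating enzymes Slc27a2 and Acsl1, the acyl-CoA dehydrogenase Acad11, the isomerase Eci1, the reductase Decr2 and the peroxisomal thiolase Acaa1a. In WT hepatocytes CCl4 raised 1 of the 40, Acot2, and lowered none, where 0.853% of all genes were called (0.576% higher and 0.277% lower). Between KO untreated and WT untreated none was called by edgeR, where 0.933% of all genes were called (0.583% higher and 0.35% lower). An unadjusted p under 0.05 was found by edgeR for 4 of the 40, and for 1203 of all 13721 genes. DESeq2 also called none of the 40, where it called 2.39% of all genes. In KO CCl4 against WT CCl4, 12 fell and none rose, where 11.8% of all genes were called (7.62% higher and 4.21% lower). In bulk libraries fewer hepatocytes and less RNA per hepatocyte cannot be told apart.

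The median log2 fold change of the 40 genes was -0.43 in KO CCl4 against KO untreated, beside 0.01 over all tested genes, and 32 of the 40 were negative. It was -0.63 in KO CCl4 against WT CCl4, beside 0.04 over all genes, with 34 of 40 negative. In WT CCl4 against WT untreated the median was 0.15 and 13 of 40 were negative, and in KO untreated against WT untreated it was -0.09 with 29 negative. Both comparisons of KO CCl4 use the same 3 KO CCl4 libraries. The counts depended on which of these 3 was used. Without replicate 3, 3 genes rose and 1 fell (Acad11) against KO untreated, with a median of -0.26 and 11.7% of all genes called. Against WT CCl4, 4 fell without it (Acad11, Eci2, Decr2 and Acaa1b), with a median of -0.41 and 2.94% of all genes called. Without replicate 1, 3 rose and 17 fell against KO untreated and 20 fell against WT CCl4, where 21.3% and 15.3% of all genes were called. Without replicate 2, 3 rose and 2 fell against KO untreated and 6 fell against WT CCl4, where 15.1% and 9.58% of all genes were called. Leaving out KO untreated replicate 4 gave 2 higher and 4 lower in the first comparison, with 15.6% of all genes called. With unscaled library totals in place of TMM, 3 rose and none fell against KO untreated, and 8 fell against WT CCl4, where 15.8% and 7.93% of all genes were called. That scaling moved the median of all genes to 0.20 in the first comparison and that of the 40 genes to -0.21.

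**Figure D1:**
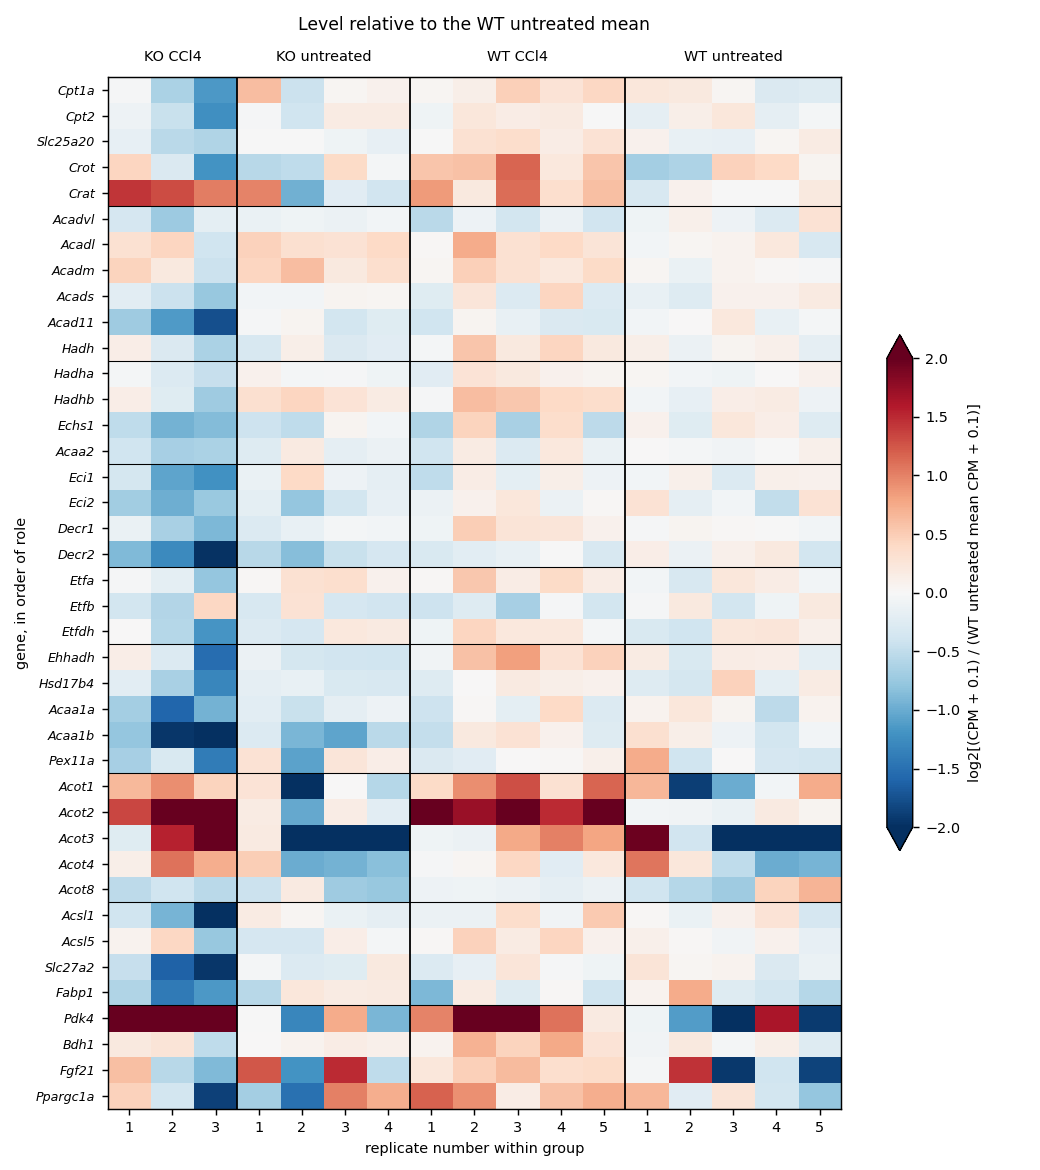
Level of each of the 40 genes (rows, grouped by role) in each of the 17 libraries (columns, grouped by genotype and treatment), as log2 of CPM over the WT untreated mean with 0.1 CPM added to both. Blue cells, below that mean, fill most of the column of KO CCl4 replicate 3 and are fewer in replicate 1, while Acot2 is red in all 8 CCl4 libraries.

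The 40 genes differed widely in level. Per length, as CPM per kilobase of exon (RPKM), Fabp1 stood first in WT untreated at 3954 ± 1569.9 RPKM (SD, n = 5), followed by the thiolase Acaa2 at 496 ± 22.2, Slc27a2 at 286 ± 40.9, the peroxisomal thiolase Acaa1b at 247 ± 43.2 and the electron transfer subunit Etfb at 235 ± 37.2 RPKM. The ranges of mean ± SD of Slc27a2, Acaa1b and Etfb overlapped. At the other end were Acot2 at 0.761 ± 0.0726, Pdk4 at 0.701 ± 0.889, the hormone gene Fgf21 at 0.545 ± 0.658 and the thioesterase Acot3 at 0.481 ± 0.842 RPKM, with overlapping SD. In KO CCl4, Fabp1 averaged 1961 ± 581 RPKM and Pdk4 8.15 ± 4.75 RPKM (SD, n = 3). The 40 genes together took 0.700% to 1.10% of counts outside mitochondrially encoded genes in KO CCl4, 0.968% to 1.15% in KO untreated, 1.13% to 1.49% in WT CCl4 and 0.990% to 1.24% in WT untreated. The highest KO CCl4 library thus lay below the lowest WT CCl4 library on this measure, while KO CCl4 and KO untreated overlapped.

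Of the 4 genes of uptake and activation, 3 fell in KO CCl4 against KO untreated and 2 fell against WT CCl4. Counts per role, here and below, stand beside the shares of all genes called. These were 12.1% higher and 6.96% lower against KO untreated, and 7.62% higher and 4.21% lower against WT CCl4. Fabp1 (ENSMUSG00000054422, chr6:71199827-71205023), the abundant cytosolic fatty acid carrier of hepatocytes, had 1443, 823 and 987 CPM in KO CCl4, against 1485, 2559, 2442 and 2474 CPM in KO untreated. In WT hepatocytes it had 1173, 2460.3, 1831, 2225 and 1659 CPM after CCl4, against 2303, 3639.8, 1828, 1695 and 1466 CPM untreated. All 3 KO CCl4 values were below the KO untreated values, but the highest of them was close to the lowest KO untreated one, and they overlapped the WT CCl4 range. The change was -1.05 ± 0.33 (SE; adjusted p = 0.0329) against KO untreated and -0.98 without KO CCl4 replicate 3 (adjusted p = 0.11). Adjusted p ran from 0.0159 to 0.134 when single libraries were left out, and the call was lost without KO CCl4 replicate 2 or 3 and without KO untreated replicate 2, 3 or 4. Against WT CCl4, Fabp1 was at -0.79 ± 0.31 (SE; adjusted p = 0.118), which was not called.

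The start of Fabp1 is shown because it was the only promoter window among these genes with an element of the PPARA and RXR kind. The element was searched as 2 copies of AGGNCA in the same direction with 1 base between them, on both strands, from 250 bases before to 50 bases after the RefSeq start. It was found in 125 of 32851 windows of that length (0.381%) and in 1 of 39 windows of the 36 member genes matched in RefSeq. Crat, Decr1, Hsd17b4 and Acaa2 had no entry. A single AGGNCA was present in 57.2% of all windows and in 29 of the 39 (74.4%). The windows of Pdk4 and Acot2, which rose where Fabp1 fell, are shown beside it and were picked after these changes were seen. Acad11, Decr2 and Acaa1a also fell, and their windows held 0 copies of AGGNCA, like that of Acot2. Among the others that fell, Slc27a2 had 1, Eci1 had 2, and Acsl1 had 1 or 0 by window. Sequences are from RefSeq (GRCm38.p6), 5′ to 3′ on the strand of the gene, with the element of Fabp1 and the single AGGNCA of Pdk4 in capitals. The Fabp1 window is chr6:71199629-71199928 on the plus strand, and its element, which reads in the direction opposite to the gene, covers chr6:71199812-71199824, 67 to 55 bases before the start. The Pdk4 window is chr6:5496229-5496528 on the minus strand, with its AGGNCA beginning 221 bases before the start, and the Acot2 window is chr12:83987611-83987910 on the plus strand, with none.
Fabp1: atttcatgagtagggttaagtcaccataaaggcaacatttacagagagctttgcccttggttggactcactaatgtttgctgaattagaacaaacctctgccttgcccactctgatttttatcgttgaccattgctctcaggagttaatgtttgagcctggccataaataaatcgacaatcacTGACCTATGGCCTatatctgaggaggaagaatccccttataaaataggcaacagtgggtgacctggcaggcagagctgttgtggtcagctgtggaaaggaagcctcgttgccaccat
Pdk4: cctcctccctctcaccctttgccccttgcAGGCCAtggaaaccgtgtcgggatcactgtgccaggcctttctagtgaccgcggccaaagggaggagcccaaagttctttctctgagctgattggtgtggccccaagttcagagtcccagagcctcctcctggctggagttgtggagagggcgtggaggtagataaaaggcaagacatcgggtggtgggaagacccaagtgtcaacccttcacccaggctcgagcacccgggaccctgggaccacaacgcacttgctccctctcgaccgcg
Acot2: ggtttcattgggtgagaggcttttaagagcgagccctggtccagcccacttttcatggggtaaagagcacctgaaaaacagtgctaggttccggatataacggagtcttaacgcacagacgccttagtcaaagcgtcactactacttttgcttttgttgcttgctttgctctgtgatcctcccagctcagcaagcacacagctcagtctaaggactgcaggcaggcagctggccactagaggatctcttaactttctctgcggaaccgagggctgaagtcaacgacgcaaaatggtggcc
A match is a match of letters, and binding was not measured.

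Slc27a2 (ENSMUSG00000027359, chr2:126552407-126588243), a fatty acid transporter that also activates very long chains, had 779, 349 and 278 CPM in KO CCl4, against 1043, 885, 909 and 1226 CPM in KO untreated. WT CCl4 libraries held 892, 959.6, 1264, 1054 and 1009.5 CPM, against 1282, 1107, 1122, 878 and 978 CPM in WT untreated. KO CCl4 lay below every library of the other 3 groups, with replicates 2 and 3 far below replicate 1. Slc27a2 fell by 1.11 ± 0.28 (SE; adjusted p = 0.00961) against KO untreated and by 1.14 ± 0.27 (SE; adjusted p = 0.0118) against WT CCl4. It was at -0.85 without KO CCl4 replicate 3 (adjusted p = 0.0503) in the first and -0.88 without KO CCl4 replicate 3 (adjusted p = 0.0846) in the second comparison, and both calls were also lost without replicate 2 (adjusted p over single leave-outs 0.0000819 to 0.0525 and 0.00011 to 0.0846). A gene on the opposite strand overlaps 11.2% of its exons, and the strand setting of the counting is not known.

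Acsl1 (ENSMUSG00000018796, chr8:46471037-46536051), the main long-chain acyl-CoA synthetase of liver, had 546, 376 and 154 CPM in KO CCl4, against 805, 736, 657 and 633 CPM in KO untreated. It had 666, 663, 917, 683 and 1031 CPM in WT CCl4, against 732, 654, 766, 873 and 569.8 CPM in WT untreated. Again every KO CCl4 library was below every other library, and replicate 3 was lowest. The log2 changes were -0.98 ± 0.31 (SE; adjusted p = 0.0337) against KO untreated and -1.14 ± 0.30 (SE; adjusted p = 0.0211) against WT CCl4. They were -0.62 without KO CCl4 replicate 3 (adjusted p = 0.0984) and -0.78 without KO CCl4 replicate 3 (adjusted p = 0.0787), and single leave-outs gave adjusted p of 0.00388 to 0.0984 and 0.00254 to 0.0787. Both calls were lost without KO CCl4 replicate 2 or 3, and the first also without KO untreated replicate 1, 2 or 3. Its relative Acsl5, another long-chain synthetase, ranged from 173 to 392 CPM in KO CCl4, 232 to 322 CPM in KO untreated, 299 to 405 CPM in WT CCl4 and 261 to 316 CPM in WT untreated, and was called in no comparison.

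**Figure D2:**
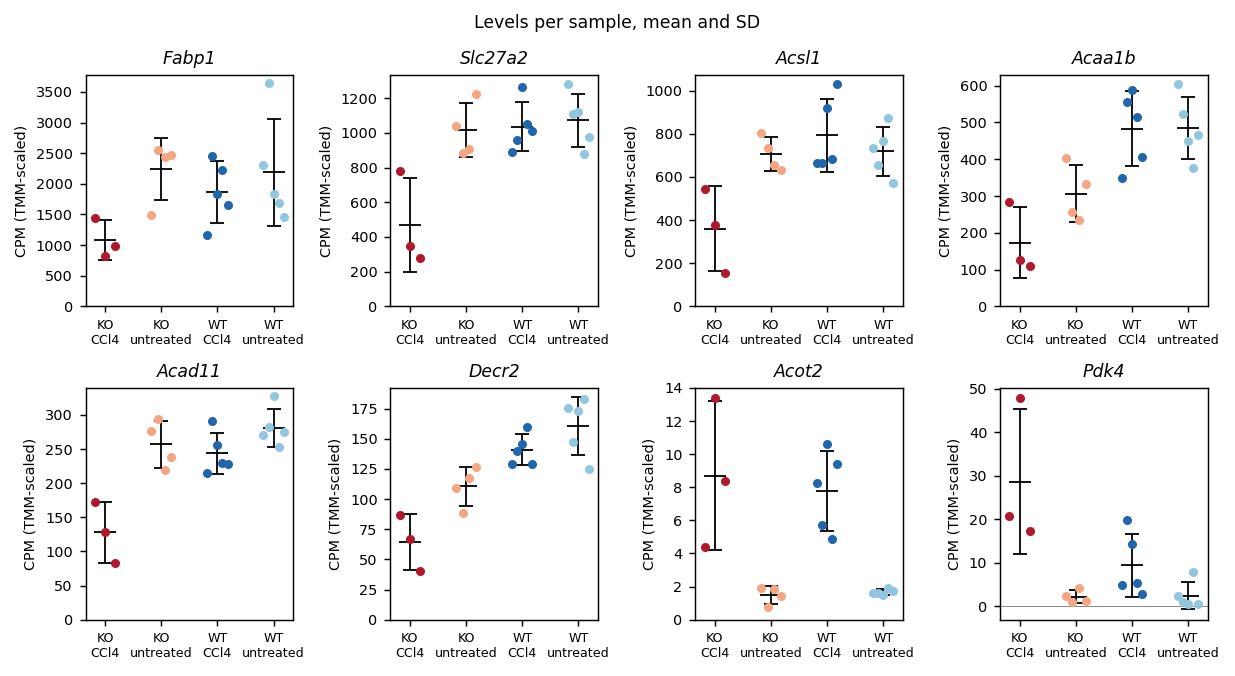
TMM-scaled CPM of 8 genes on linear axes that start at 0 or below it, with 1 point per library, the mean as a bar and the SD as whiskers, for KO CCl4 (n = 3), KO untreated (n = 4), WT CCl4 (n = 5) and WT untreated (n = 5). KO CCl4 libraries are lowest for Slc27a2, Acsl1, Acad11 and Decr2, whereas Acot2 is higher after CCl4 in both genotypes.

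The carnitine shuttle (5 genes) had 1 member that rose in KO CCl4 against KO untreated and 2 that fell against WT CCl4. Crat (ENSMUSG00000026853, chr2:30400471-30415813), which moves acetyl groups between CoA and carnitine, had 50, 45.6 and 37.6 CPM in KO CCl4, against 36.6, 9.41, 15.8 and 14.1 CPM in KO untreated. It had 33.2, 21.1, 40, 23.2 and 27.9 CPM in WT CCl4, against 14.7, 19.5, 18.3, 18.4 and 21.1 CPM in WT untreated. CCl4 libraries exceeded all untreated libraries of their own genotype, and 1 KO untreated library, replicate 1, reached the WT CCl4 range. Crat rose by 1.22 ± 0.34 (SE; adjusted p = 0.0171) in KO hepatocytes, and was at 1.32 without KO CCl4 replicate 3 (adjusted p = 0.0305). Its adjusted p ran from 0.000995 to 0.0522 over single leave-outs, with the call lost without KO untreated replicate 4. In WT hepatocytes the value was 0.66 ± 0.28 (SE; adjusted p = 0.282), not called, and the difference between the genotypes was 0.56 ± 0.44 (SE; adjusted p = 0.566).

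Cpt1a (ENSMUSG00000024900, chr19:3322334-3385733), the outer-membrane carnitine palmitoyltransferase that limits the rate of entry into mitochondria, had 314, 206 and 144 CPM in KO CCl4, against 330.2, 346, 447, 388 and 426 CPM in WT CCl4. KO untreated had 489.9, 237, 329.5 and 339.7 CPM, against 376, 367, 329, 262 and 267 CPM in WT untreated. Every KO CCl4 library was below every WT CCl4 library, but KO CCl4 overlapped KO untreated. Cpt1a was at -0.81 ± 0.25 (SE; adjusted p = 0.0466) against WT CCl4, a call that held in 4 of the 17 single leave-outs (adjusted p 0.00715 to 0.249), and at -0.58 without KO CCl4 replicate 3 (adjusted p = 0.249). Of the other 13 leave-outs, 2 removed KO CCl4 replicate 2 or 3, 5 removed 1 of the WT CCl4 libraries, 2 removed KO untreated replicate 3 or 4, and 4 removed WT untreated replicate 1, 2, 3 or 4. Against KO untreated it was at -0.66 ± 0.26 (SE; adjusted p = 0.0919), not called. Slc25a20 (ENSMUSG00000032602, chr9:108662088-108684641), the carrier that exchanges acylcarnitine for carnitine across the inner membrane, had 63.6, 49.1 and 46.9 CPM in KO CCl4, against 70.7, 88.4, 90.6, 79.2 and 87.4 CPM in WT CCl4. It had 70.8, 70.5, 67.4 and 63.6 CPM in KO untreated, against 75.6, 64.1, 63.4, 73 and 79.7 CPM in WT untreated. KO CCl4 and WT CCl4 did not overlap. Slc25a20 fell by 0.65 ± 0.14 (SE; adjusted p = 0.00763) against WT CCl4, and was at -0.56 without KO CCl4 replicate 3 (adjusted p = 0.0594), the 1 leave-out that lost the call (range 0.00223 to 0.0594). The inner-membrane transferase Cpt2 was called in no comparison and lay at 109, 85.7 and 49.5 CPM in KO CCl4, against 109.7, 136, 129, 132 and 115 CPM in WT CCl4, without overlap. Crot, the carnitine octanoyltransferase of peroxisomes and the member of highest CPM in this role, was not called either. It had 652, 396 and 211 CPM in KO CCl4 and 328, 338, 629.7 and 469 CPM in KO untreated, and 711, 724, 1084, 557 and 705 CPM in WT CCl4 and 299, 313, 660.0, 636 and 502 CPM in WT untreated. The KO CCl4 libraries were spread so widely that they overlapped each of the other groups.

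Among the 6 genes of the dehydrogenation steps, Acad11 was the 1 that was called. Acad11 (ENSMUSG00000090150, chr9:104063377-104127725), an acyl-CoA dehydrogenase that also takes part in the breakdown of hydroxylated fatty acids, had 172, 128 and 82.9 CPM in KO CCl4, against 277, 294, 219 and 239 CPM in KO untreated. In WT hepatocytes it had 215, 291, 255, 229.7 and 229 CPM after CCl4, against 270.5, 282, 327, 253 and 274 CPM untreated. All KO CCl4 libraries were below all others. Acad11 fell by 1.01 ± 0.21 (SE; adjusted p = 0.00296) against KO untreated and by 0.93 ± 0.20 (SE; adjusted p = 0.00701) against WT CCl4. It was at -0.77 without KO CCl4 replicate 3 (adjusted p = 0.0128) and -0.70 without KO CCl4 replicate 3 (adjusted p = 0.0441), and both calls held in all 17 single leave-outs (adjusted p 0.000461 to 0.0128 and 0.000916 to 0.0441). The very-long-chain dehydrogenase Acadvl, the member of highest CPM in this role, had 301, 229.6 and 332 CPM in KO CCl4, against 346, 356, 348 and 364 CPM in KO untreated. WT CCl4 had 261, 354, 294, 349.6 and 292 CPM, against 358, 407, 352, 315 and 461 CPM in WT untreated. KO CCl4 lay below KO untreated in every library, Acadvl was called in no comparison, and 42.9% of its exons are overlapped by Dvl2 on the opposite strand. The long-, medium- and short-chain dehydrogenases Acadl, Acadm and Acads and the hydroxyacyl-CoA dehydrogenase Hadh were not called. Over these 4 genes, KO CCl4 group means ran from 98.1 CPM (Acads) to 246 CPM (Acadm), and their log2 changes against KO untreated lay between those of Acads at -0.45 and Hadh at -0.06. In KO untreated, Acadm and Acadl exceeded every WT untreated library, at 306, 345, 259 and 287 CPM against 232, 206, 238, 230.5 and 224 CPM and at 177, 161, 157 and 169 CPM against 124, 132, 135, 149 and 103 CPM. Neither was called, at 0.40 ± 0.16 (SE; adjusted p = 0.388) and 0.37 ± 0.17 (SE; adjusted p = 0.57). With Hadhb they were the 3 of the 40 whose untreated genotypes did not overlap with KO higher, where 1.76% of all genes did so, and none did so with KO lower, where 1.89% of all genes did. These were picked out after their values were seen.

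The trifunctional protein, hydratase and thiolase genes (4) carry out the last 3 steps of a round of mitochondrial oxidation. None was called in KO CCl4 against KO untreated, and Hadhb fell against WT CCl4. Hadhb (ENSMUSG00000059447, chr5:30155248-30184593), the thiolase subunit of the trifunctional protein, had 165, 128 and 92.5 CPM in KO CCl4, against 148, 232, 219, 198 and 193 CPM in WT CCl4. It had 189, 204, 183 and 169 CPM in KO untreated, against 145, 135, 166, 169 and 140.2 CPM in WT untreated. KO CCl4 replicate 1 lay above the lowest WT CCl4 library, so those groups overlapped, while KO untreated lay above WT untreated throughout. Its change was -0.63 ± 0.18 (SE; adjusted p = 0.0358) against WT CCl4 and -0.44 without KO CCl4 replicate 3 (adjusted p = 0.207). The call held in 11 of the 17 single leave-outs (adjusted p 0.00711 to 0.207) and was lost without KO CCl4 replicate 2 or 3 and without WT CCl4 replicate 2, 3, 4 or 5. Shared stretches bear on it as well: 19.7% of its 50-base windows also occur in another annotated gene. Acaa2, the mitochondrial thiolase and the member of highest CPM in this role, had 572, 475 and 487 CPM in KO CCl4, against 629, 849.7, 663 and 692 CPM in KO untreated. It had 571, 843, 622, 875 and 689.9 CPM in WT CCl4, against 754, 735, 715, 752 and 806 CPM in WT untreated. KO CCl4 was below KO untreated in every library, yet the change of -0.47 ± 0.17 (SE; adjusted p = 0.0589) was not called, nor was that of -0.49 ± 0.16 (SE; adjusted p = 0.0553) against WT CCl4. Hadha, the partner subunit of Hadhb, ranged from 207 to 276 CPM in KO CCl4 and 266 to 301 CPM in KO untreated. The hydratase Echs1 had 148, 109 and 116 CPM in KO CCl4, against 157, 149, 219 and 202 CPM in KO untreated, which did not overlap, and was not called.

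The 4 auxiliary enzymes rearrange the double bonds of unsaturated fatty acids so that oxidation can go on. All 4 fell in KO CCl4 against WT CCl4, where 4.21% of all genes fell. Of these, 2 fell against KO untreated, where 6.96% of all genes fell. Without KO CCl4 replicate 3, only Eci2 and Decr2 were still called against WT CCl4, and neither Eci1 nor Decr2 against KO untreated. Decr2 (ENSMUSG00000036775, chr17:26081208-26090337), the peroxisomal dienoyl-CoA reductase, had 86.7, 66.5 and 40.6 CPM in KO CCl4, against 109, 88.7, 118 and 127 CPM in KO untreated. It had 129, 139.6, 146, 160.1 and 129 CPM in WT CCl4, against 176, 148, 173, 183 and 125 CPM in WT untreated. The KO CCl4 libraries were below those of every other group, and KO untreated reached into the WT untreated range with 1 library. Decr2 fell by 0.77 ± 0.22 (SE; adjusted p = 0.0188) against KO untreated and by 1.12 ± 0.21 (SE; adjusted p = 0.00336) against WT CCl4. It was at -0.53 without KO CCl4 replicate 3 (adjusted p = 0.0857) in the first, a call also lost without KO untreated replicate 4 (range 0.00349 to 0.0857), and at -0.88 without KO CCl4 replicate 3 (adjusted p = 0.0196) in the second, which held in all 17 leave-outs (range 0.000693 to 0.0196). In KO untreated against WT untreated Decr2 had the smallest p of the 40, at -0.54 ± 0.19 (SE; adjusted p = 0.298). That value was not called with all libraries, and was called at -0.62 (adjusted p = 0.0484) once KO CCl4 replicate 3 and WT untreated replicate 5 were left out together.

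Eci1 (ENSMUSG00000024132, chr17:24426641-24439348), the mitochondrial enoyl-CoA isomerase, had 72.5, 44.5 and 39.9 CPM in KO CCl4, against 84.6, 122, 86.7 and 81.5 CPM in KO untreated. WT CCl4 had 65.5, 103, 80.6, 101 and 86.1 CPM, against 89.7, 99.8, 76.4, 99.4 and 98.3 CPM in WT untreated. Replicate 1 stayed within the WT CCl4 range, and all 3 KO CCl4 libraries were below KO untreated. The changes were -0.84 ± 0.22 (SE; adjusted p = 0.0131) against KO untreated and -0.74 ± 0.21 (SE; adjusted p = 0.0332) against WT CCl4, or -0.68 without KO CCl4 replicate 3 (adjusted p = 0.0744) and -0.58 without KO CCl4 replicate 3 (adjusted p = 0.196). Both calls were lost without KO CCl4 replicate 2 or 3, and the second also without WT CCl4 replicate 2, 4 or 5 (ranges 0.00155 to 0.0744 and 0.00351 to 0.196). Eci2 (ENSMUSG00000021417, chr13:34977748-35027096), a second isomerase found in peroxisomes and mitochondria, had 81.9, 67.7 and 79.6 CPM in KO CCl4, against 123, 142, 157, 123 and 136 CPM in WT CCl4. It had 116, 77.9, 103 and 119 CPM in KO untreated, against 162, 118, 129, 94.9 and 162 CPM in WT untreated. The 3 KO CCl4 libraries were close together and well below WT CCl4, but overlapped KO untreated. Eci2 fell by 0.83 ± 0.19 (SE; adjusted p = 0.0103) against WT CCl4, was at -0.86 without KO CCl4 replicate 3 (adjusted p = 0.047), and held in all 17 leave-outs (range 0.00738 to 0.047). Decr1 (ENSMUSG00000028223, chr4:15917240-15945507), the mitochondrial dienoyl-CoA reductase and the member of highest CPM in this role, had 120.4, 84.1 and 70.6 CPM in KO CCl4, against 124, 185, 158, 156 and 140.4 CPM in WT CCl4. KO untreated had 109, 119, 128 and 127 CPM, against 129, 137, 133, 131 and 127 CPM in WT untreated. KO CCl4 replicate 1 fell just short of the lowest WT CCl4 library and within the KO untreated range. Decr1 was at -0.73 ± 0.17 (SE; adjusted p = 0.0101) against WT CCl4 and at -0.58 without KO CCl4 replicate 3 (adjusted p = 0.0794), the 1 leave-out that lost the call (range 0.000957 to 0.0794).

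**Figure D3:**
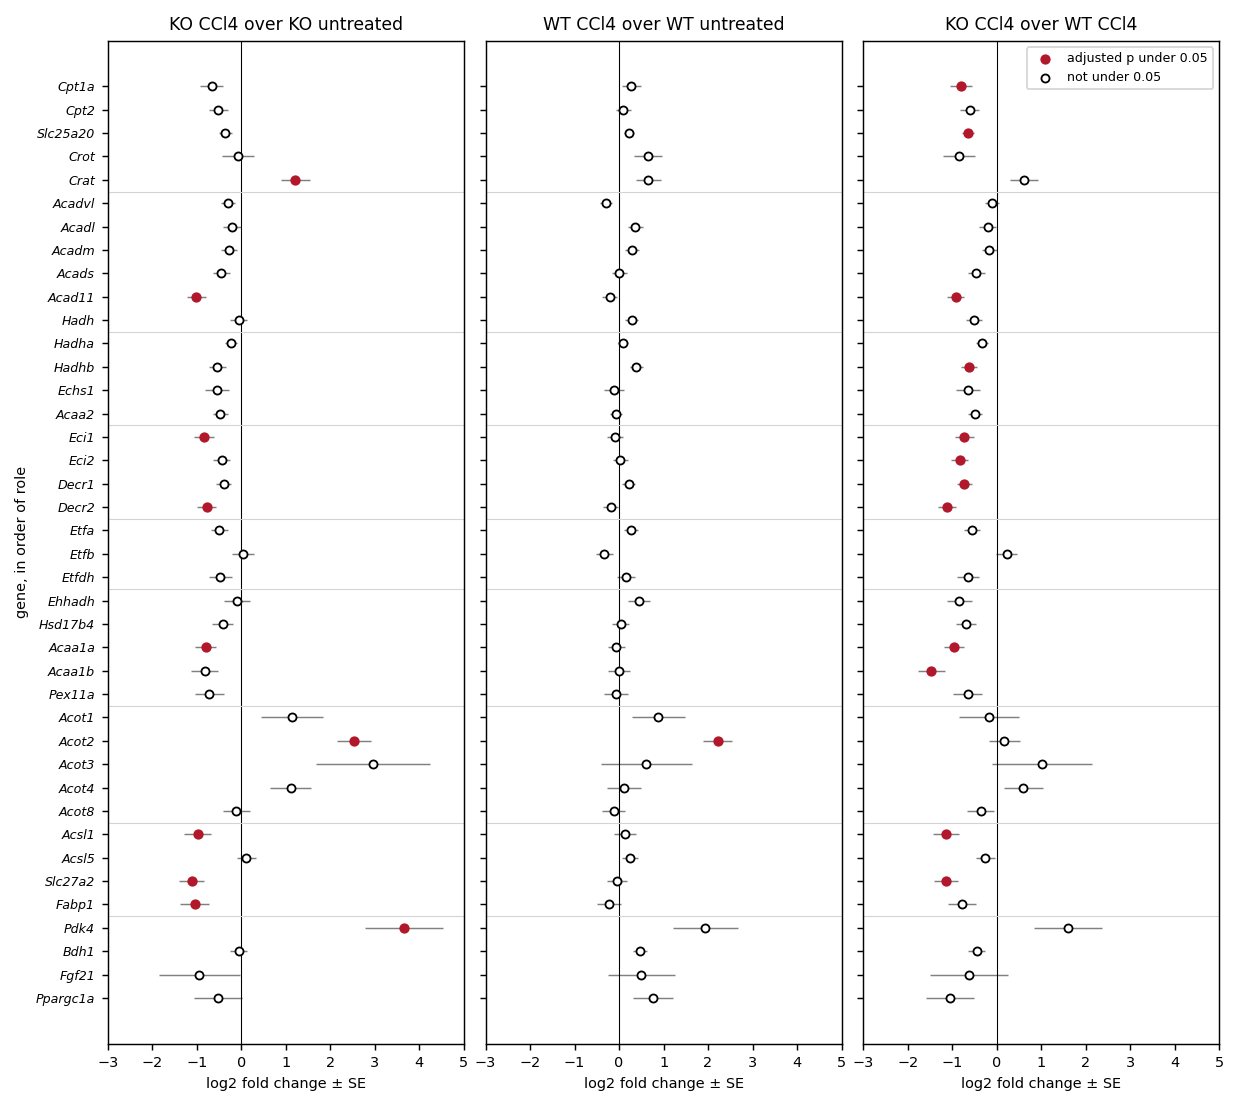
Log2 fold change with its SE for each of the 40 genes, grouped by role, in KO CCl4 over KO untreated, WT CCl4 over WT untreated and KO CCl4 over WT CCl4. Filled points have an edgeR adjusted p under 0.05: 10 in the first panel, 1 (Acot2) in the second and 12, all below 0, in the third.

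The electron transfer flavoproteins (3 genes) pass electrons from acyl-CoA dehydrogenases to the respiratory chain, and none was called in any comparison. Etfa, the alpha subunit and the member of highest CPM in this role, had 259.6, 229 and 155 CPM in KO CCl4, against 268, 327, 332 and 279.5 CPM in KO untreated. It had 267, 382, 292, 345 and 291 CPM in WT CCl4, against 254, 210.2, 309, 293 and 253 CPM in WT untreated. KO CCl4 was below all KO untreated and WT CCl4 libraries, with changes of -0.49 ± 0.19 (SE; adjusted p = 0.0897) and -0.55 ± 0.18 (SE; adjusted p = 0.0621). Etfb, the beta subunit, went the other way in replicate 3: it had 212, 183 and 364 CPM in KO CCl4, against 220.4, 335, 217 and 211 CPM in KO untreated. Gm45233, on the same strand, overlaps 58.2% of its exons, so its counts are uncertain. The dehydrogenase Etfdh had 206, 137 and 90.3 CPM in KO CCl4, against 192, 274, 236, 235 and 199 CPM in WT CCl4, with replicate 1 inside the WT range.

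In the peroxisomal group (5 genes) Acaa1a fell in both comparisons of KO CCl4, and Acaa1b against WT CCl4. Both encode 3-ketoacyl-CoA thiolases, the enzyme that closes a round of peroxisomal oxidation. Acaa1a (ENSMUSG00000036138, chr9:119339676-119350299) had 118, 62.6 and 98.3 CPM in KO CCl4, against 164, 139, 167 and 176 CPM in KO untreated. WT CCl4 had 142, 192, 165, 248 and 157 CPM, against 198, 220.5, 196, 132 and 198 CPM in WT untreated. The KO CCl4 libraries were below all others, and replicate 2 was lowest. Acaa1a was at -0.79 ± 0.23 (SE; adjusted p = 0.0245) against KO untreated and at -0.96 ± 0.23 (SE; adjusted p = 0.0123) against WT CCl4, or at -0.83 without KO CCl4 replicate 3 (adjusted p = 0.0576) and -0.997 without KO CCl4 replicate 3 (adjusted p = 0.0558). Both calls were lost without KO CCl4 replicate 2 or 3, and the first also without KO untreated replicate 4 (ranges 0.0101 to 0.123 and 0.00511 to 0.0558). Acaa1b (ENSMUSG00000010651, chr9:119148023-119157093), the member of highest CPM in this role, had 284, 126 and 111 CPM in KO CCl4, against 349, 557, 589, 514 and 406 CPM in WT CCl4. It had 403, 257, 234 and 334 CPM in KO untreated, against 604, 523, 450.0, 377 and 467 CPM in WT untreated. KO CCl4 lay below WT CCl4 in every library and overlapped KO untreated, whose libraries were themselves mostly under those of WT untreated. Acaa1b fell by 1.48 ± 0.30 (SE; adjusted p = 0.00515) against WT CCl4, the largest fall among the 12, and was at -1.24 without KO CCl4 replicate 3 (adjusted p = 0.0451). That call held in all 17 leave-outs (range 0.000249 to 0.0451). It was at -0.82 ± 0.30 (SE; adjusted p = 0.069) against KO untreated and -0.66 ± 0.26 (SE; adjusted p = 0.411) in KO untreated against WT untreated, neither of them called. The thiolases share sequence: 30.5% of the 50-base windows of Acaa1b also occur in Acaa1a, and 12.4% of those of Acaa1a in Acaa1b, so reads could be split between them. In addition, Dlec1 on the opposite strand overlaps 11.4% of the exons of Acaa1b.

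Ehhadh, the bifunctional enzyme of the classical PPARA-driven peroxisomal route, was not called. It had 206, 155 and 65.1 CPM in KO CCl4, against 177, 282, 331, 227 and 256 CPM in WT CCl4. It had 173, 147, 144 and 141 CPM in KO untreated, against 209, 152, 207, 204 and 162 CPM in WT untreated. KO CCl4 replicate 3 was the lowest of the 17, and replicate 1 was inside the WT CCl4 range. Hsd17b4, the bifunctional enzyme for branched and very long chains, ranged from 135 to 288 CPM in KO CCl4 and 278 to 379 CPM in WT CCl4. Pex11a, a peroxisome division factor, ranged from 19 to 40.5 CPM in KO CCl4 and 41.1 to 54 CPM in WT CCl4. Neither was called.

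The 5 acyl-CoA thioesterases, which release free fatty acids from acyl-CoA, were the only role with a positive median in KO CCl4 against KO untreated, at 1.14, and 1 of them was called. Acot2 (ENSMUSG00000021226, chr12:83987861-83993873), the mitochondrial form, had 4.36, 13.4 and 8.35 CPM in KO CCl4, against 1.89, 0.77, 1.87 and 1.42 CPM in KO untreated. In WT hepatocytes it had 8.23, 5.74, 10.6, 4.88 and 9.41 CPM after CCl4, against 1.61, 1.58, 1.51, 1.92 and 1.73 CPM untreated. All 8 CCl4 libraries were above all 9 untreated libraries. With Crat it was 1 of 2 members whose WT CCl4 libraries were all above WT untreated, where 3.15% of all genes were, and none of the 40 was all below, where 1.69% were. Acot2 rose by 2.53 ± 0.38 (SE; adjusted p = 0.000495) in KO and by 2.21 ± 0.32 (SE; adjusted p = 0.0034) in WT hepatocytes. It was the 1 member called in both genotypes, and the difference of the CCl4 effects was 0.31 ± 0.49 (SE; adjusted p = 0.802), which was not called. Both calls held in all 17 leave-outs (ranges 0.0000831 to 0.0024 and 0.00104 to 0.0157), and in KO hepatocytes it was at 2.56 without KO CCl4 replicate 3 (adjusted p = 0.0015). Its level stayed low throughout, at 3.96 ± 2.06 RPKM in KO CCl4, 0.677 ± 0.239 in KO untreated, 3.54 ± 1.11 in WT CCl4 and 0.761 ± 0.0726 in WT untreated. Of its 50-base windows, 24.6% also occur in its neighbour Acot1.

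Acot1, the cytosolic form and the member of highest CPM in this role, had 15.8, 19.2 and 13.8 CPM in KO CCl4, against 12.2, 0.171, 10.1 and 6.78 CPM in KO untreated. It had 13.2, 19.4, 24.9, 12.5 and 22.8 CPM in WT CCl4, against 16, 2.67, 5.03, 9.73 and 17 CPM in WT untreated. Untreated libraries were scattered over a wide range in both genotypes. The values of 1.14 ± 0.70 (SE; adjusted p = 0.306) and 0.88 ± 0.59 (SE; adjusted p = 0.524) were not called. Acot3 had 1.38, 5.01 and 8.59 CPM in KO CCl4, against 1.89, 0.0856, 0.165 and 0.251 CPM in KO untreated, and Acot4 had 11.7, 23 and 17.9 CPM in KO CCl4, against 15.3, 5.39, 5.55 and 6.03 CPM in KO untreated. For both, KO untreated replicate 1 lay inside the KO CCl4 range, and neither was called. Both are peroxisomal, as is Acot8, which ranged from 8.43 to 9.33 CPM in KO CCl4, 7.29 to 13.9 CPM in KO untreated, 10.8 to 11.7 CPM in WT CCl4 and 7.47 to 19.7 CPM in WT untreated, and was not called.

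In the last group (4 genes) Pdk4 rose in KO hepatocytes after CCl4. Pdk4 (ENSMUSG00000019577, chr6:5483351-5496309), a kinase that switches off pyruvate dehydrogenase and so spares glucose while fat is burned, had 20.7, 47.8 and 17.3 CPM in KO CCl4, against 2.46, 0.941, 4.18 and 1.26 CPM in KO untreated. WT CCl4 libraries had 4.99, 19.8, 14.3, 5.32 and 2.79 CPM, against 2.32, 1.08, 0.44, 7.89 and 0.578 CPM in WT untreated. KO CCl4 was above every untreated library, and 1 WT CCl4 library, replicate 2, reached its range. Pdk4 rose by 3.66 ± 0.88 (SE; adjusted p = 0.0076) in KO hepatocytes, with 3.92 without KO CCl4 replicate 3 (adjusted p = 0.0153), and the call held in all 17 leave-outs (range 0.00232 to 0.035). In WT hepatocytes it was at 1.94 ± 0.73 (SE; adjusted p = 0.216), not called, but without WT untreated replicate 4, whose level was the highest of its group, it was called at 3.16 (adjusted p = 0.0435; range over leave-outs 0.0435 to 0.41). The difference of the CCl4 effects, 1.73 ± 1.10 (SE; adjusted p = 0.46), was not called.

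Bdh1, the mitochondrial enzyme that turns acetoacetate into beta-hydroxybutyrate and the member of highest CPM in this group, had 200.2, 207 and 123 CPM in KO CCl4, against 175, 182, 193 and 187 CPM in KO untreated. It had 182, 282, 239, 295 and 211 CPM in WT CCl4, against 166, 201, 170.0, 190.1 and 145 CPM in WT untreated. The groups overlapped in both genotypes. In WT hepatocytes its change of 0.47 ± 0.16 (SE; adjusted p = 0.183) was not called. With unscaled library totals the median of all genes in WT hepatocytes moved to 0.38, and 4.74% of all genes were called, against 0.853% with TMM. Bdh1 and Slc25a20 then joined Acot2 among the calls in WT hepatocytes, at 0.85 and 0.62. Fgf21, a fasting hormone that liver secretes, was near the limit of detection, with 0.837, 0.322 and 0.236 CPM in KO CCl4, against 1.36, 0.171, 1.65 and 0.335 CPM in KO untreated. The coactivator gene Ppargc1a had 14.2, 7.97 and 2.76 CPM in KO CCl4, against 6.37, 3.59, 20.9 and 17 CPM in KO untreated. It had 23.5, 19.5, 11.4, 15.6 and 17.1 CPM in WT CCl4, against 16.3, 8.76, 12.4, 7.96 and 6 CPM in WT untreated. Its KO groups were too scattered to tell apart, and neither gene was called in any comparison.

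Whether CCl4 acted differently in the 2 genotypes was tested as the difference of the CCl4 effects, KO minus WT. None of the 40 was called by edgeR with all libraries, where 1.09% of all tested genes were called (0.794% higher and 0.299% lower). An unadjusted p under 0.05 was found by edgeR for 14 of the 40, and for 2343 of all 13721 genes. DESeq2 called 2 (Hadhb and Slc25a20, both lower), where it called 5.71% of all genes. The median over the 40 was -0.58, beside 0.04 over all genes, and 32 of 40 were negative. The 5 of smallest p were Hadhb at -0.93 ± 0.25 (SE; adjusted p = 0.0664), Slc25a20 at -0.58 ± 0.19 (SE; adjusted p = 0.117), Acad11 at -0.80 ± 0.26 (SE; adjusted p = 0.125), Etfa at -0.75 ± 0.25 (SE; adjusted p = 0.127) and Slc27a2 at -1.06 ± 0.35 (SE; adjusted p = 0.128). For Hadhb the CCl4 effect was -0.54 ± 0.19 (SE; adjusted p = 0.058) in KO and 0.39 ± 0.16 (SE; adjusted p = 0.244) in WT hepatocytes, neither of them called. Without KO CCl4 replicate 1, 10 of the 40 were called lower in KO (Acaa1b, Acsl1, Eci1, Cpt1a, Slc27a2, Decr1, Etfa, Slc25a20, Hadhb and Acad11), and 5.99% of all genes were called. Without replicate 3 none was, with a median of -0.37 and 0.0773% of all genes called.

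The 3 KO CCl4 libraries were at different distances from WT CCl4. Set against the WT CCl4 mean, the median of the 40 genes was -0.28 in replicate 1, -0.62 in replicate 2 and -0.95 in replicate 3 on the log2 scale. In replicate 1, 16 of the 40 were below every WT CCl4 library and 2 above all of them, where 18.3% and 22.1% of all tested genes were. The same counts were 29 and 5 in replicate 2, where 25.9% and 28.2% of all genes were, and 32 and 3 in replicate 3, where 30.9% and 35.5% were. Set against KO untreated, 13 of the 40 were below every library and 8 above all of them in replicate 1, where 23.1% and 25.9% of all genes were. There were 23 below and 8 above in replicate 2, where 30.2% and 31.5% of all genes were, and 30 below and 7 above in replicate 3, where 32.0% and 34.2% were. Replicate 2 thus lay between the other 2 on the medians, and replicate 3 was lowest. Macrophage markers summed to 536 CPM in replicate 2. Hepatocyte markers summed to 152498 CPM in replicate 2, 99321 CPM in replicate 3 and 170578 CPM in replicate 1. These sums are of unscaled library totals. Mitochondrially encoded genes took 34.3% of the total in replicate 3, 7.49% in replicate 1 and 4.25% in replicate 2. Their part in the order of the medians was not tested. Over all 3 libraries, 4 of the 40 were above all KO untreated libraries and 13 below all of them, where 14.4% and 10.8% of all genes were, and 14 were below all WT CCl4 libraries, where 7.97% of all genes were.

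**Figure D4:**
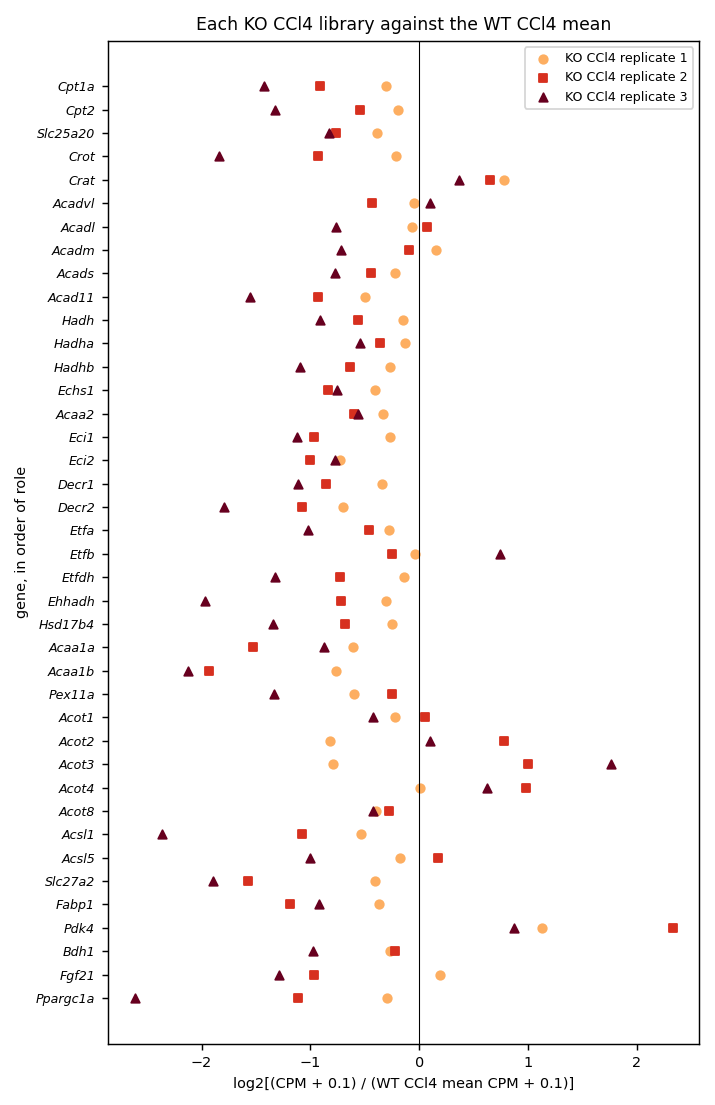
Log2 of CPM over the WT CCl4 mean (0.1 CPM added to both) for each of the 40 genes in each of the 3 KO CCl4 libraries. Most points lie left of 0, with medians of -0.28, -0.62 and -0.95 for replicates 1, 2 and 3. Pdk4, Crat and Acot4 lie right of 0 in all 3, Acot4 only just so in replicate 1 (0.0092).

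Hepatocyte markers differed between libraries, and the 40 genes were therefore also set against the hepatocyte markers of the same library. Their summed counts were 5.98%, 5.53% and 4.63% of the summed counts of the 11 markers in KO CCl4 replicates 1, 2 and 3, against 6.55% to 9.24% in KO untreated. In WT CCl4 they were 7.70% to 9.86%, against 6.80% to 8.78% in WT untreated. All 3 KO CCl4 libraries, replicate 1 included, were below all 14 others. Of the 11 markers, 3 fell in KO CCl4 against KO untreated (Cps1, Apoa1 and Serpina1c) and 1 against WT CCl4 (Cps1), or 1 and 0 without KO CCl4 replicate 3. Against WT CCl4, 5 of the 11 had a positive log2 fold change, among them Ahsg at 0.52 ± 0.17, which was not called. Alb made up 67.6%, 69.3% and 67.0% of the marker counts in KO CCl4 replicates 1, 2 and 3, against 52.7% to 65.2% in the other 14 libraries, and was not called, at 0.10 ± 0.23 against KO untreated. Without Alb, a choice made after seeing the data, the 40 genes came to 18.46%, 18.01% and 14.03% of the other 10 markers in KO CCl4, against 20.33%, 16.56%, 18.18% and 18.23% in KO untreated, and the groups overlapped. KO CCl4 was then still below all WT CCl4 libraries, at 21.1% to 27.6%. No test was made on either ratio.

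**Figure D5:**
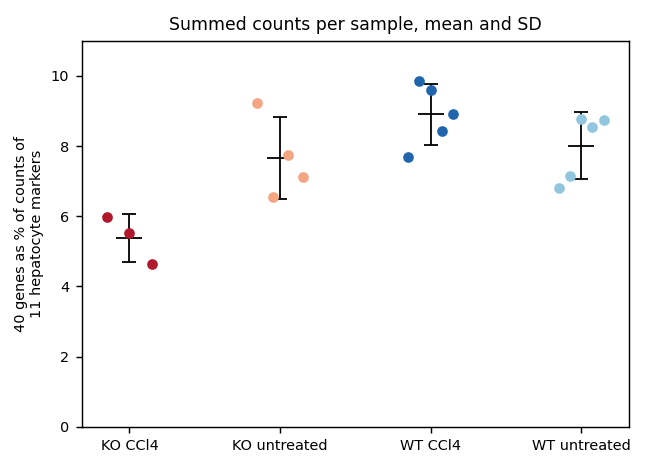
Summed counts of the 40 genes as a percent of the summed counts of 11 hepatocyte markers in each library, with group mean and SD. The KO CCl4 libraries lie between 4.63% and 5.98%, below the lowest of the other 14 at 6.55%. With Alb left out of the markers KO CCl4 overlapped KO untreated.

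Other genes of the same pathway were taken from a list of 40 further oxidation genes, of which 37 were tested. In KO CCl4 against KO untreated 12.1% of all genes rose and 6.96% fell, and 11.7% were called without KO CCl4 replicate 3. Of the 37, 1 rose and 16 fell, with a median of -0.67, and 2 rose and 9 fell without KO CCl4 replicate 3. Those of smallest p were Scp2, a peroxisomal lipid transfer protein and thiolase, at -1.47 ± 0.26, the phytanoyl-CoA hydroxylase Phyh at -1.34 ± 0.24, the medium-chain synthetase Acsm3 at -1.49 ± 0.27 and the peroxisomal CoA diphosphatase Nudt7 at -2.64 ± 0.48. Against WT CCl4 7.62% of all genes rose and 4.21% fell, and 2.94% were called without replicate 3. None of the 37 rose there and 12 fell (4 without replicate 3), among them Acsm3 at -1.49 ± 0.26, Phyh at -1.18 ± 0.23, the malonyl-CoA decarboxylase Mlycd at -0.71 ± 0.15 and Nudt7 at -2.06 ± 0.46. All 4 were called in the first comparison without replicate 3, and all but Nudt7 in the second. In WT CCl4 against WT untreated, and in KO untreated against WT untreated, none of the 37 was called by edgeR. There 5 and 2 of the 37 were at an unadjusted p under 0.05, and 2023 and 1203 of all 13721 genes. The difference of the CCl4 effects was called for Acsm3 at -1.56 ± 0.34, and for none without replicate 3.

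The lists that follow stand beside the same shares of all genes, 12.1% higher and 6.96% lower in KO CCl4 against KO untreated. Against WT CCl4 the shares were 7.62% and 4.21%. Of 9 further genes of ketone body metabolism, 1 rose and 1 fell against WT CCl4, and none was called there without replicate 3. In KO CCl4 against KO untreated 2 rose, the monocarboxylate transporters Slc16a7 (1.07 ± 0.25) and Slc16a6 (1.28 ± 0.43). The acetoacetyl-CoA thiolase Acat1 (-0.86 ± 0.25) and the cytosolic dehydrogenase Bdh2 (-1.32 ± 0.36) fell. Without KO CCl4 replicate 3, Slc16a7 was called at 1.20. Slc16a6, Acat1 and Bdh2 were not called there, although their values of 1.46, -0.80 and -1.27 were of about the same size (adjusted p = 0.055, 0.0826 and 0.0618). The transporter Slc16a1, not called with all libraries at 0.74 ± 0.33, was called without replicate 3 at 1.07 (adjusted p = 0.0302). Oxct1, which activates ketone bodies for use and is scarce in hepatocytes, was higher in KO untreated than in WT untreated at 2.92 ± 0.67 (adjusted p = 0.0496) and in KO CCl4 than in WT CCl4 at 2.50 ± 0.67, or 2.10 without replicate 3, where it was not called (adjusted p = 0.134). Among 17 genes of PPARA signalling and its coregulators, Ppara itself was not called, at -0.68 ± 0.35 in KO CCl4 against KO untreated (adjusted p = 0.203) and -0.51 ± 0.33 against WT CCl4 (adjusted p = 0.368). The corepressor Nrip1 (1.45 ± 0.40) and the receptor Ppard (1.55 ± 0.49) rose against KO untreated, and the mitochondrial deacetylase Sirt3 (-1.08 ± 0.28) and the coactivator Ppargc1b (-1.51 ± 0.47) fell. Without replicate 3, Nrip1 and Ppard were called, at 1.65 and 1.90, and Sirt3 and Ppargc1b were not, at -1.02 (adjusted p = 0.0534) and -1.43 (adjusted p = 0.104). Ppard was also higher against WT CCl4, at 1.87 ± 0.46. Of 20 other PPARA targets 2 rose and 1 fell against WT CCl4, and none was called there without replicate 3. Against KO untreated 3 rose and 1 fell, near the shares over all genes. Fabp4, Cd36 and Hilpda rose, at 6.75 ± 1.11, 5.05 ± 0.85 and 3.92 ± 0.74, or 4.33, 3.53 and 1.78 without replicate 3. These 3 are also expressed by macrophages and endothelial cells, whose markers rose in the same libraries, and the part of those cells was not tested. The lipase gene Pnpla2 fell (-0.60 ± 0.19), and was at -0.62 without replicate 3, where it was not called (adjusted p = 0.0793).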

How the data were processed

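The authors deposited 1 table of raw counts per gene for the 17 samples, in whole numbers. The submitters' processing notes name STAR 2.4.1d and mm10, and the labels' protocols name the NEBNext Ultra II library kit. Which tool counted reads, on which annotation and strand, is not given in the sources used here, so genes that overlap or share sequence are uncertain. Besides the genes flagged above, Gm49366 on the same strand overlaps 20.6% of the exons of Acot3. Genes on the opposite strand overlap 13.7% of those of Bdh1 and 12.3% of those of Acot8. Columns were matched to samples by title. Replicate columns were checked for being splits of 1 library: the lowest chi-square per gene of a pair was 23.4. Groups were taken from the labels, which also say that replicate numbers do not pair samples. Same-numbered samples of compared groups had correlated deviations of -0.237 to 0.201, so no pairing was used.

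Counts were fitted in R 4.3.3 with edgeR 4.0.16 (filterByExpr at 10 counts and a total of 15, TMM scaling, group means, robust quasi-likelihood F tests, Benjamini-Hochberg adjustment over 13721 genes). The SE of a log2 fold change is its absolute value divided by the square root of F. The fit was also run on simulated counts with the same mean per gene in all groups, apart from a set of genes changed in KO CCl4. No simulated library was made to stand apart from its group, so that run cannot show how a divergent library affects the calls. RPKM use the union exon length of mm10 gene models, and summed markers, Yap1 and Wwtr1 use unscaled CPM. Alternatives were other scalings and filters, DESeq2 1.42.0, limma 3.58.1 (voom with quality weights), 2 groups only, a replicate block and left-out libraries. The members and lists were chosen with earlier results of these data known. Members were named where called, where they led their role in CPM, or where they had 1 of the 5 smallest p in the difference of CCl4 effects. Other lists gave at most 4 called genes per comparison, and Ppara. Members given values outside these rules were chosen after their values were seen.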

Additional observations from a re-analysis of the deposited data

Results flagged for a closer look

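In groups of 4 or 5 libraries, the highest or lowest CPM was set against the rest of its group, and 10 of 120 combinations of gene and group had 1 library far from the others. Chance flags about 1 in 20 groups. The KO CCl4 group, with 3 libraries, was not examined.

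KO untreated replicate 2 stood out for 3 genes. Eci1 was at 122 CPM there, against 81.5 to 86.7 CPM in the other KO untreated libraries, and Etfb was at 335 CPM, against 211 to 220.4 CPM. Pex11a was low in the same library, at 24 CPM against 55.3 to 61.2 CPM. KO untreated replicate 1 stood out for another 3. Fabp1 was at 1485 CPM, against 2442 to 2559 CPM in the other 3, and the thioesterases were high: Acot3 at 1.89 CPM against 0.0856 to 0.251 CPM, and Acot4 at 15.3 CPM against 5.39 to 6.03 CPM.

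Among WT untreated libraries, replicate 1 was high for Acot3 (6.75 CPM, against 0 to 1.25 CPM) and for Pex11a (83.9 CPM, against 38.2 to 50.3 CPM). Replicate 4 was high for Pdk4, at 7.89 CPM against 0.44 to 2.32 CPM, and low for Acaa1a, at 132 CPM against 196 to 220.5 CPM.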

How the results depend on the processing

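With 3 KO CCl4 libraries, calls in their comparisons depended on which of them was kept. Called members numbered 10 in KO CCl4 against KO untreated, 1 in WT CCl4 against WT untreated, 0 in KO untreated against WT untreated, 12 in KO CCl4 against WT CCl4 and 0 for the difference of CCl4 effects. Over all genes 19%, 0.853%, 0.933%, 11.8% and 1.09% were called, in the same order. Leaving out 1 library at a time gave ranges of 4 to 20, 1 to 2, 0 to 0, 4 to 20 and 0 to 10 members. The shares of all genes then ran from 11.7% to 21.3%, 0.46% to 1.26%, 0.642% to 1.07%, 2.94% to 15.3% and 0% to 5.99%. Unscaled library totals gave 3 calls in KO CCl4 against KO untreated and 3 in WT CCl4 against WT untreated. They called 15.8% and 4.74% of all genes. Fitting only the compared groups gave 2 in KO CCl4 against KO untreated and 5 in KO CCl4 against WT CCl4, with 9.92% and 8.21% of all genes called. Without the 2 libraries of over 30% mitochondrial counts the counts were 4 against KO untreated, 4 against WT CCl4 and 1 in KO untreated against WT untreated. Of all genes 12.4%, 3.96% and 1.12% were called there. DESeq2 gave 2 calls for the difference of CCl4 effects, with 5.71% of all genes called. With the replicate number as a block, which the labels say pairs no samples, 7 members were called in KO CCl4 against KO untreated and 7 in KO CCl4 against WT CCl4. That block called 14.8% and 6.32% of all genes. The difference of CCl4 effects on Acot2, which was not called, changed sign with limma voom (-0.10) and without KO CCl4 replicate 2 (-0.15, in a range of -0.15 to 0.62 over left-out libraries). Other settings gave counts within 1.5 times those with all libraries. Among them, limma voom called 1 member higher and 8 lower in KO CCl4 against WT CCl4, where it called 7.53% of all genes. Of 1315 alternative fits of the 49 single-gene log2 fold changes tracked, 109 lost a call, 30 gained one and 2 changed sign. Fgf21, at few counts per library in every group, is imprecise. So is Acot3, which had few counts in most untreated libraries and was widely scattered between libraries. The causes were not tested.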
